A study of Arabidopsis thaliana with 12 samples.

Results

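Transcripts of 46 nuclear genes for the light-harvesting antenna, the 2 photosystems and the small subunit of Rubisco were followed in whole Arabidopsis thaliana seedlings aged 8 days. The genes were taken by locus identifier from a table of 32833 genes. They comprise 6 LHCA genes (antenna of photosystem I), 14 LHCB genes (antenna of photosystem II), 12 nuclear photosystem I subunit genes (PSI), 10 nuclear photosystem II genes including PSBS (PSII), and the 4 RBCS genes. The rule is their annotated family and uses no measured value. The 12 RNA-seq libraries fall into 4 groups of 3, which are phod2 seedlings in P-, phod2 seedlings in P+, KC seedlings in P- and KC seedlings in P+. The title of the series is about phosphate, and P- and P+ are therefore read as low and high phosphate. No concentration, light regime or harvest time is labelled. KC is taken as the line that phod2 is set against. Neither KC nor the gene altered in phod2 is spelled out in the labels, and the number of independent phod2 lines is not stated. The series describes its replicates as biological. The KC P+ columns of the deposited table are headed WT, so if that heading named another line, every comparison with KC P+ would include that difference.

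In the thylakoid membrane, LHCA and LHCB proteins bind chlorophyll and pass light energy to photosystem I and photosystem II, whose cores are partly encoded in the plastid and partly by the nuclear PSA and PSB genes. Rubisco fixes carbon dioxide in the Calvin cycle, with a plastid-encoded large subunit and a small subunit encoded by the RBCS genes. Transcripts of many antenna genes are known to follow light and the circadian clock through the day.

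Libraries held 16821084 to 23327960 counts. The 46 genes took 11.1 to 14.2% of all counts in phod2 P-, 9.11 to 9.27% in phod2 P+, 11.4 to 11.5% in KC P- and 9.06 to 9.22% in KC P+. Replicate 2 of phod2 P- stood apart. Its deviations from the mean of replicates 1 and 3 of phod2 P- fell with transcript length (Spearman -0.694 across genes). The members, which have short transcripts, lay a median 0.474 above that mean of replicates 1 and 3 on the log2 scale. That library alone gave the value of 14.2%. For the members, counts, medians and calls of P- against P+ that this library changes are given with and without it. So are called values of members that it moves by more than 1.5 times. Other listed genes are given with all libraries only.

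The members were among the most abundant transcripts of the seedlings. On the FPKM scale, which divides counts by gene length and library size, 8 of the 10 highest genes in phod2 P- were members, as were 7 in phod2 P+, 9 in KC P- and 8 in KC P+. LHCB1.5 was the 1 member with no count in any library, and it was not tested. AT2G08665 overlaps all 1045 bases of LHCB1.5 on the opposite strand and had 0 to 3 counts, and AT2G34410 overlaps 99 of them, also on the opposite strand, and had 268 to 614 counts. The 3 counts that a zero allows correspond to 0.129 to 0.178 CPM, for counting error only. The 45 other members had at least 508 counts in every library, and 17 of the 46 overlap another annotated gene. Reads from overlaps on opposite strands cannot be told apart without stranded counting. PSAD2 and PSBP1 also overlap a gene on the same strand, by 2 and 22 bases, where strand would not help.

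Summed over its genes, the LHCB subset stood at 30209 ± 4181 FPKM in phod2 P-, 18742 ± 179.5 in phod2 P+, 29639 ± 617 in KC P- and 18429 ± 176 in KC P+ (mean ± SD, n = 3 each). The LHCA sum was 9686 ± 977, 6903 ± 90.1, 9307 ± 169.8 and 6823 ± 106 FPKM in the same groups.  The RBCS sum was 26407 ± 3879 FPKM in phod2 P-, 23194 ± 115 in phod2 P+, 24649 ± 578 in KC P- and 23152 ± 159.7 in KC P+. The PSI sum was 16657 ± 2919.7, 13207 ± 116, 15046 ± 203 and 14036 ± 40.3 FPKM, and the PSII sum was 18454 ± 3342, 15043 ± 158, 16036 ± 118 and 14487 ± 213 FPKM, in the same order of groups. In all 5 subsets every P- library lay above every P+ library of its genotype, and replicate 2 was the highest of phod2 P-. The LHCB subset made up 29.8% ± 0.37 of the members' summed FPKM in phod2 P-, 24.3% ± 0.064 in phod2 P+, 31.3% ± 0.6 in KC P- and 24.0% ± 0.046 in KC P+. The share of RBCS was 26.0% ± 0.16, 30.1% ± 0.098, 26.0% ± 0.66 and 30.1% ± 0.16 in those groups. These shares, unlike the sums, were close among the 3 libraries of phod2 P-.

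**Figure D1:**
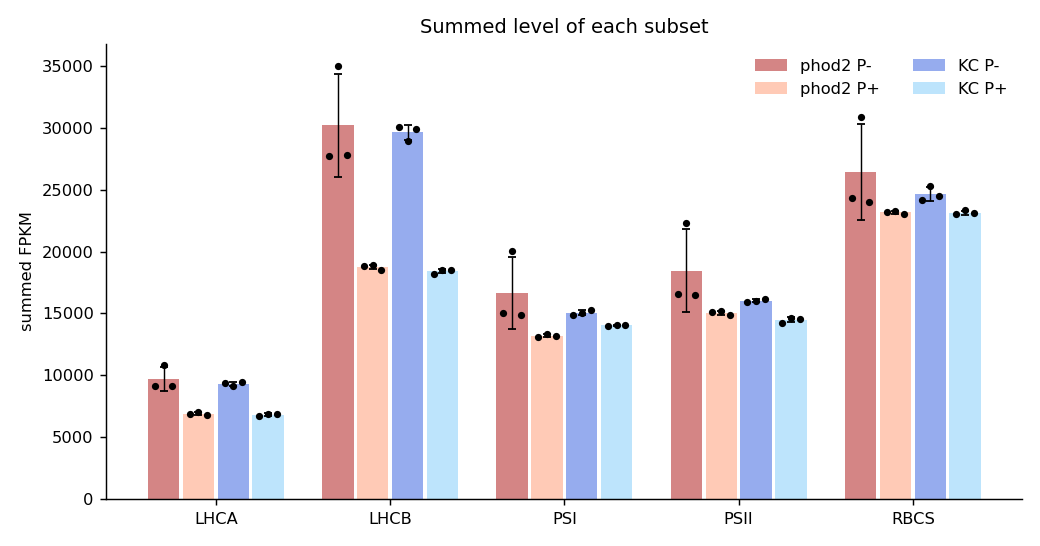
Summed FPKM of the 5 subsets, with bars for the mean, error bars for the SD and points for the 3 libraries of each group. The LHCB sum was 27740.5 to 35036 in phod2 P- and 28933 to 30071 in KC P-, above the P+ groups, and the highest point of each phod2 P- bar is replicate 2.

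The first comparison was P- against P+ within each genotype. As a subset the LHCB genes carried the largest differences, though not all of them rose. With no harvest time in the labels, phosphate condition and time of day cannot be told apart for any change of P- against P+ given here. In whole seedlings, fewer cells of a type and less RNA per cell cannot be told apart either. Of 45 members tested, 29 rose and 4 fell in phod2 (edgeR quasi-likelihood test, Benjamini-Hochberg adjusted p at most 0.05), where 34.4% of all tested genes were higher and 33.6% lower. In KC 23 rose and 8 fell, against 32.2% of all tested genes higher and 32.3% lower. The median log2 change of the members was 0.46 in phod2 and 0.26 in KC, whereas the median over all tested genes was 0.01 in both. With the 2-fold limit of the series' design text added, 11 members rose and 1 fell in phod2 (14.1% and 10.3% of all tested genes), and 10 rose and 1 fell in KC (10.9% and 9.6%). The counts past both limits were the same without replicate 2 of phod2 P-. The members' median was then 0.38 in phod2 and 0.26 in KC, against 0.05 and 0.01 over all genes tested. At adjusted p alone that omission gave 29 higher and 12 lower in phod2 (38.3% and 34.0% of 21087 genes tested) and 30 higher and 10 lower in KC (36.9% and 37.0%). Called only then were LHCA2, LHCA5, LHCB4.1, PSAH1, PSAL, PSBO1, RBCS1B and RBCS2B in phod2, all lower, and LHCB4.1 and PSAH1 (lower) and PSAE1, PSAO, PSBO2, PSBP1, PSBR, PSBY and RBCS3B (higher) in KC. With all other libraries kept, 2 were lower in phod2 without replicate 1 or without replicate 3 of phod2 P-. Of the 33 members called in phod2, 3 lost the call in at least 1 of the 12 omissions of a single library, as did 5 of the 31 called in KC. None of these calls was lost without replicate 2 of phod2 P-.

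By subset, 10 of the 13 LHCB genes tested rose and 2 fell in each genotype, with a median log2 change of 1.64 in phod2 and 1.55 in KC. Of the 6 LHCA genes, 4 rose and 0 fell in phod2, and 4 rose and 1 fell in KC, with medians of 0.46 in phod2 and 0.35 in KC. Among the 12 PSI genes, 7 rose and 1 fell in phod2, and 5 rose and 3 fell in KC, with medians of 0.48 in phod2 and 0.18 in KC. Among the 10 PSII genes, 6 rose and 1 fell in phod2, and 3 rose and 1 fell in KC, with medians of 0.34 in phod2 and 0.11 in KC. Of the 4 RBCS genes, 2 rose and 0 fell in phod2, and 1 rose and 1 fell in KC, with medians of 0.16 in phod2 and 0.10 in KC. Called in either direction were 68% of all tested genes in phod2 and 64.5% in KC. The share was 92.3% for LHCB, 66.7% for PSI and 50% for RBCS in each genotype. For LHCA it was 66.7% in phod2 and 83.3% in KC, and for PSII 70% in phod2 and 40% in KC. Apart from LHCB, these shares were thus not all above that of all tested genes. Without replicate 2 of phod2 P-, the phod2 medians were 1.49 for LHCB, 0.39 for LHCA, 0.30 for PSI, 0.19 for PSII and -0.01 for RBCS. In phod2, 10 LHCB genes then rose and 3 fell, as did 4 and 2 LHCA genes. The phod2 counts were 7 and 3 for PSI, 6 and 2 for PSII, and 2 and 2 for RBCS. The KC counts were 10 and 3 for LHCB, 4 and 1 for LHCA and 7 and 4 for PSI. For PSII they were 7 and 1 in KC, and for RBCS 2 and 1. Of all genes tested, 38.3% were then higher and 34.0% lower in phod2, and 36.9% and 37.0% in KC. With the length trend of each library removed, the medians in phod2 were 1.44 for LHCB, 0.28 for LHCA, 0.056 for PSI, 0.092 for PSII and 0.095 for RBCS. In KC they were 1.51 for LHCB, 0.31 for LHCA, -0.046 for PSI, 0.053 for PSII and 0.10 for RBCS. PSI then had 5 members higher and 5 lower in KC (83.3%, against 70.9% of all genes tested). That correction moved 17 of the 33 called values in phod2 and 6 of the 31 in KC by more than 1.5 times or turned their sign.

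**Figure D2:**
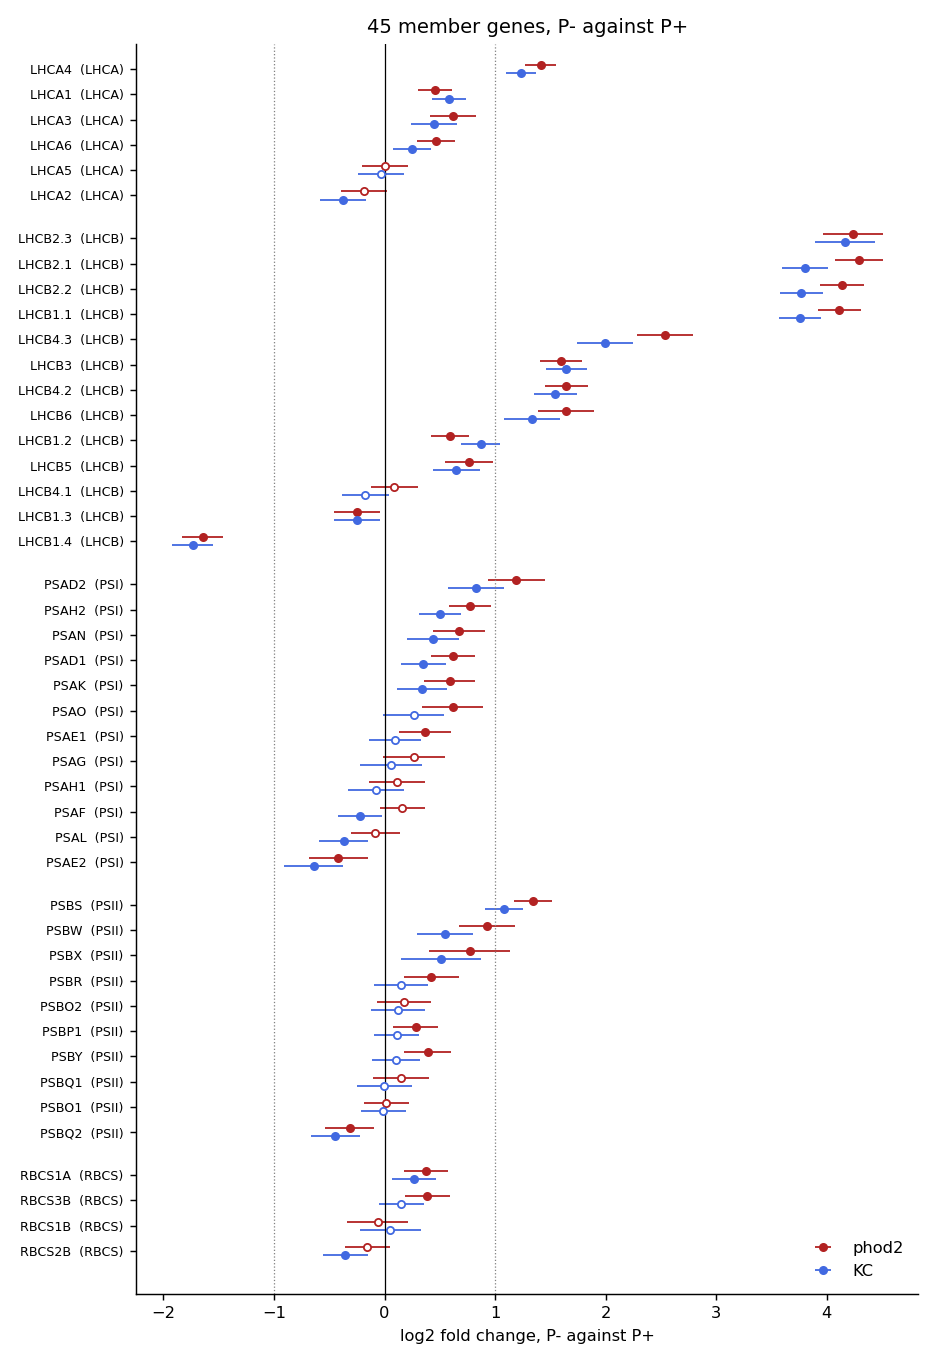
Fitted log2 change of P- against P+ for the 45 members tested, by subset, in phod2 (red) and KC (blue), with 95% confidence intervals, filled points for adjusted p at most 0.05 and dotted lines at a 2-fold change. LHCB1.1 and the 3 LHCB2 genes lie at 3.76 or above in both genotypes, and LHCB1.4 lies at -1.65 in phod2 and -1.74 in KC.

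The LHCB1 genes encode the main protein of the light-harvesting trimers of photosystem II, and they did not move together. LHCB1.1 had 3238, 3882 and 3216 FPKM in phod2 P-, 206, 212 and 209 in phod2 P+, 3761, 3683 and 3752 in KC P- and 287, 275 and 277 in KC P+. The P- libraries were all above the P+ libraries by more than 10-fold, with no overlap. The fitted log2 change was 4.11 ± 0.092 (SE, adjusted p = 7.05e-14) in phod2 and 3.76 ± 0.09 (SE, adjusted p = 1.77e-13) in KC. LHCB1.2 had 2304, 2794 and 2325 FPKM in phod2 P-, 1742, 1758 and 1670.3 in phod2 P+, 2635, 2562 and 2638 in KC P- and 1433, 1452 and 1463 in KC P+. It also separated by condition, but less widely, with changes of 0.59 ± 0.082 (SE, adjusted p = 1.87e-05) in phod2 and 0.87 ± 0.082 (SE, adjusted p = 4.35e-07) in KC. LHCB1.3 had 6877, 8947 and 6913 FPKM in phod2 P-, 9443, 9488 and 9449 in phod2 P+, 7851, 7776 and 7742 in KC P- and 9331, 9511 and 9389 in KC P+. This gene, ranked 2 of all genes by mean FPKM, was lower in every P- library, and the change was -0.25 ± 0.097 (SE, adjusted p = 0.0353) in phod2 and -0.25 ± 0.097 (SE, adjusted p = 0.0343) in KC. That call was lost in KC without any 1 of its 6 KC libraries (adjusted p up to 0.0791). Without replicate 2 of phod2 P- it was kept in KC, at -0.25 ± 0.017 (SE, adjusted p = 2.98e-20). In phod2 the call was lost without replicate 1 of phod2 P- (-0.16, adjusted p = 0.144), without replicate 3 (-0.17, adjusted p = 0.137) and without any 1 of the phod2 P+ libraries. For phod2, DESeq2 gave an adjusted p of 0.0565. The phod2 value was -0.39 ± 0.019 (SE, adjusted p = 1.89e-26) without replicate 2 of phod2 P-. LHCB1.4 had 259.9, 308 and 247 FPKM in phod2 P-, 885, 907 and 883 in phod2 P+, 282, 268 and 282 in KC P- and 936, 937 and 939 in KC P+. It was the 1 member that fell past both limits, by 1.65 on the log2 scale in phod2 (adjusted p = 6.63e-10) and by 1.74 in KC (adjusted p = 4.51e-10).

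LHCB1.1, LHCB1.2 and LHCB1.3 lie side by side on chromosome 1 (AT1G29920, chr1:10474656-10475969, - strand; AT1G29910, chr1:10472280-10473502, - strand; AT1G29930, chr1:10477885-10479114, + strand), and LHCB1.4 lies on chromosome 2 (AT2G34430, chr2:14524607-14525918, + strand). The coding sequences of LHCB1.1 and LHCB1.2 are 95.6% identical and those of LHCB1.1 and LHCB1.3 96.1%, with shared runs of up to 116 and 119 bases, so reads could be split between them in a way that the sources used here do not describe. With the 3 genes summed, the change of P- against P+ was 0.34 in phod2 (adjusted p = 0.00359) and 0.39 in KC (adjusted p = 0.00153), opposite in sign to LHCB1.3 on its own. LHCB1.1 made up 25.1% ± 0.62 of the LHCB1 FPKM in phod2 P-, 1.7% ± 0.021 in phod2 P+, 25.9% ± 0.13 in KC P- and 2.32% ± 0.07 in KC P+. LHCB1.3 made up 54.9% ± 1.1, 77.0% ± 0.33, 54.1% ± 0.36 and 77.9% ± 0.17 in the same groups. The 4 genes are shown with the 250 bases before their annotated start (RefSeq TAIR10.1, 5′ to 3′ on the gene's strand), because close copies with different changes have different upstream letters. Capitals mark matches to a CCA1-binding site.
LHCB1.1 chr1:10475970-10476219 (- strand): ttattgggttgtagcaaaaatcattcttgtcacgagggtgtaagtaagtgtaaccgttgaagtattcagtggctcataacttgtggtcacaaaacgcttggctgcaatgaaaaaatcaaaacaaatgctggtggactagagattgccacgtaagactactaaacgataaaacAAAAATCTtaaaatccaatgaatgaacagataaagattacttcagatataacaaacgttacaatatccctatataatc
LHCB1.2 chr1:10473503-10473752 (- strand): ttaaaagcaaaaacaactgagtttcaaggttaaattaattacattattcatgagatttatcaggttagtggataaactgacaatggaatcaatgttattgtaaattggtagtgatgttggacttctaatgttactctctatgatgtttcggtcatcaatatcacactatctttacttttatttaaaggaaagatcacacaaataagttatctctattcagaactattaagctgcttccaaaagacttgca
LHCB1.3 chr1:10477635-10477884 (+ strand): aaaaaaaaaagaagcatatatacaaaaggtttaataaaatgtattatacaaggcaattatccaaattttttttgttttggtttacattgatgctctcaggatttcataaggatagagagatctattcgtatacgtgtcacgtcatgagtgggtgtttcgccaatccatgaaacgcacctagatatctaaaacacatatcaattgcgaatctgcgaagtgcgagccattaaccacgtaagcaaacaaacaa
LHCB1.4 chr2:14524357-14524606 (+ strand): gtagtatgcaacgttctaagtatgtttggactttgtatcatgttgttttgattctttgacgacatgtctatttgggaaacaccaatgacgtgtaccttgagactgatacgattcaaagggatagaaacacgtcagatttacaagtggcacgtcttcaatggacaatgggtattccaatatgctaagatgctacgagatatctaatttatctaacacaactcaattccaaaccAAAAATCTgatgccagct
The letters searched on both strands were AAAAATCT or AACAATCT for the CCA1-binding site, AAAATATCT for the evening element, CACGTG for the G-box, GATAAG for the GATA box and GNATATNC for P1BS, the site of the phosphate starvation factor PHR1. No motif contains another. A CCA1-binding site was present in 6 of 46 member windows (LHCA4, LHCB1.1, LHCB1.4, PSAE2, PSAN and PSAO), against 8.38% of 27443 protein-coding genes. It begins 78 bases before the start of LHCB1.1, which rose, and 18 bases before that of LHCB1.4, which fell. The evening element was found in 1 member (LHCA5; 2.36% of all), the G-box in 9 (6.49%), the GATA box in 10 (12.3%) and P1BS in 1 (PSBR; 5.46%).

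LHCB2 proteins join LHCB1 in the trimers and take part in state transitions. LHCB2.1 had 1467, 1783 and 1509.5 FPKM in phod2 P-, 85.4, 86.9 and 82.9 in phod2 P+, 1506, 1352 and 1507 in KC P- and 106, 103 and 109 in KC P+. LHCB2.2 had 1649, 1979 and 1651 FPKM in phod2 P-, 102, 105 and 107 in phod2 P+, 1789, 1702 and 1760.4 in KC P- and 131, 131 and 128 in KC P+. LHCB2.3 had 643, 872 and 644 FPKM in phod2 P-, 39.2, 40.4 and 41.1 in phod2 P+, 697, 705 and 707 in KC P- and 40.7, 38.8 and 39.5 in KC P+. Each of the 3 genes was more than 10-fold higher in every P- library than in any P+ library. The log2 changes in phod2 were 4.29 for LHCB2.1, 4.14 for LHCB2.2 and 4.23 for LHCB2.3, and in KC they were 3.80, 3.77 and 4.17. The largest adjusted p among these 6 values was 2.01e-12. As a family LHCB2 made up 13.5% ± 0.23 of LHCB FPKM in phod2 P-, 1.23% ± 0.022 in phod2 P+, 13.2% ± 0.17 in KC P- and 1.5% ± 0.028 in KC P+. LHCB2.1 and LHCB2.2 share a run of up to 152 transcript bases, and summing them gave 4.22 in phod2 and 3.79 in KC.

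LHCB3 is the third trimer protein, and LHCB4 (CP29), LHCB5 (CP26) and LHCB6 (CP24) are the minor antenna proteins that link trimers to the core. LHCB3 had 3404, 4164 and 3408 FPKM in phod2 P-, 1289.8, 1298 and 1224 in phod2 P+, 3478, 3465 and 3559 in KC P- and 1102, 1142 and 1163 in KC P+. Its P- and P+ libraries did not overlap, and it rose by 1.60 ± 0.087 (SE, adjusted p = 9.85e-10) in phod2 and 1.65 ± 0.088 (SE, adjusted p = 8.51e-10) in KC. LHCB6 had 2154, 2928 and 2157 FPKM in phod2 P-, 824, 837 and 778 in phod2 P+, 2153, 1905 and 2129 in KC P- and 804, 832 and 849 in KC P+. LHCB6 rose by 1.64 ± 0.12 (SE, adjusted p = 2.00e-08) in phod2 and 1.34 ± 0.12 (SE, adjusted p = 2.01e-07) in KC, again with no overlap. The 3 LHCB4 genes differed among themselves. LHCB4.2 had 1297, 1597 and 1319.5 FPKM in phod2 P-, 494, 470.2 and 454 in phod2 P+, 1310.0, 1262 and 1293 in KC P- and 424, 455 and 464 in KC P+, a rise of 1.64 ± 0.091 (SE, adjusted p = 1.10e-09) in phod2 and 1.55 ± 0.091 (SE, adjusted p = 2.47e-09) in KC. LHCB4.3 had 98.7, 130.5 and 99.4 FPKM in phod2 P-, 20.3, 20.6 and 18.5 in phod2 P+, 74.7, 73.0 and 72.5 in KC P- and 18.6, 19.4 and 18.2 in KC P+. LHCB4.3, the least abundant LHCB gene that was detected, did not overlap between conditions and rose by 2.54 ± 0.12 (SE, adjusted p = 1.60e-10) in phod2 and 1.99 ± 0.12 (SE, adjusted p = 2.49e-09) in KC. LHCB4.1, the most abundant of the 3, averaged 1862 ± 296 FPKM in phod2 P-, 1839 ± 11.6 in phod2 P+, 1616 ± 63.5 in KC P- and 1849 ± 5.69 in KC P+, with log2 values of 0.09 in phod2 and -0.17 in KC that did not pass the test. The LHCB4.2 share of LHCB4 FPKM was 41.7% ± 0.96 in phod2 P-, 20.3% ± 0.72 in phod2 P+, 43.3% ± 0.47 in KC P- and 19.3% ± 0.77 in KC P+. LHCB5 rose by 0.76 in phod2 and 0.65 in KC.

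**Figure D3:**
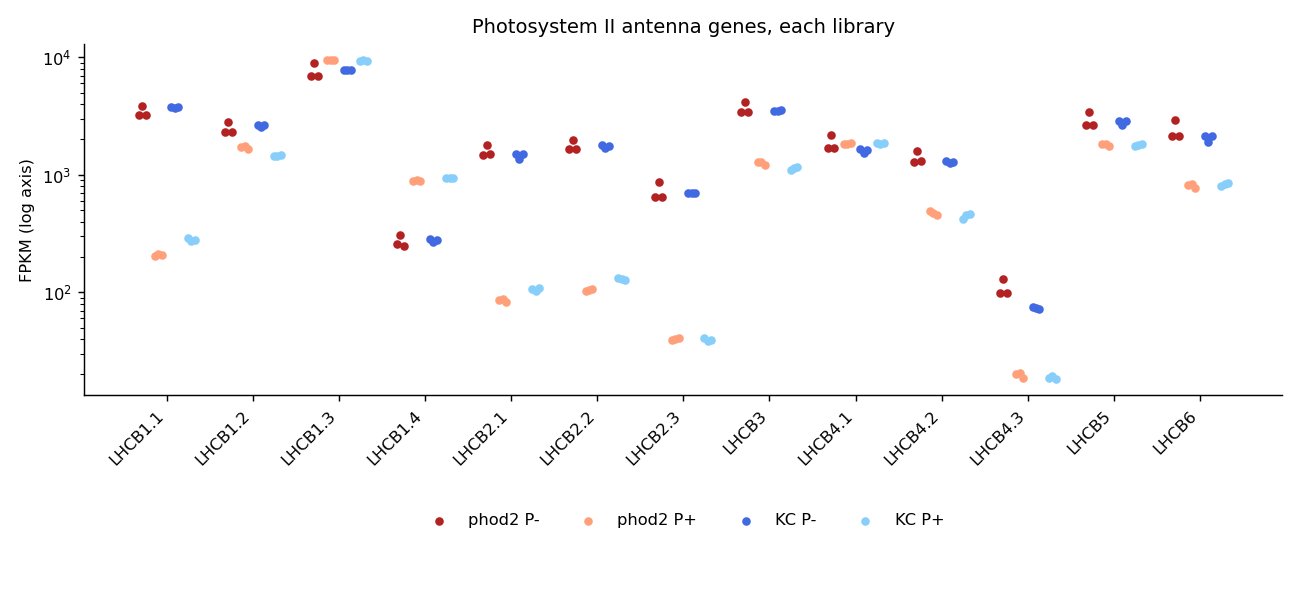
FPKM of the 13 detected LHCB genes on a log axis, 1 point per library and 1 colour per group. P- points (dark) lie far above P+ points (light) for LHCB1.1 and the LHCB2 genes, below them for LHCB1.4, and close to them for LHCB1.3 and LHCB4.1.

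**Figure D4:**
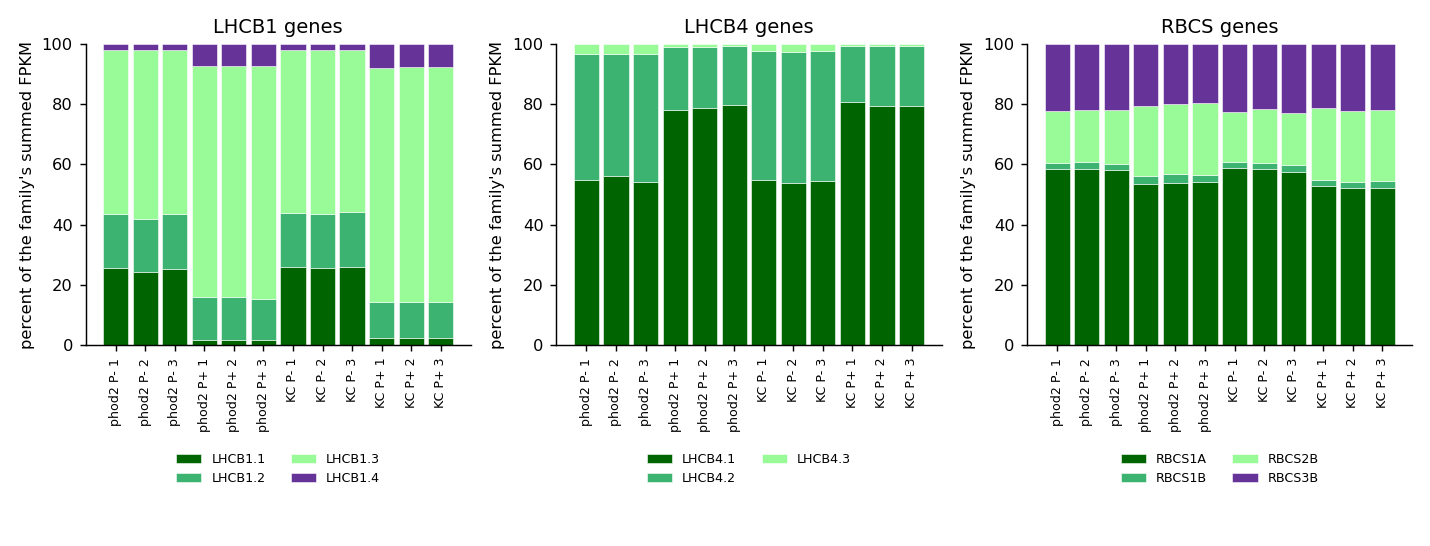
Share of each gene in the summed FPKM of its family (LHCB1, LHCB4 and RBCS) in each library. The shares of LHCB1.1 and LHCB4.2 are larger in P- than in P+ libraries of both genotypes, and replicate 2 of phod2 P- resembles its group.

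In the antenna of photosystem I, the LHCA1 and LHCA4 proteins form a pair, as do LHCA2 and LHCA3. LHCA4 had 3043, 3331 and 3050.1 FPKM in phod2 P-, 1239, 1262 and 1214 in phod2 P+, 3071, 2859.8 and 3079.9 in KC P- and 1281, 1305 and 1302 in KC P+. All P- libraries exceeded all P+ libraries, and LHCA4 rose by 1.41 ± 0.064 (SE, adjusted p = 1.25e-10) in phod2 and 1.23 ± 0.064 (SE, adjusted p = 6.31e-10) in KC. LHCA1 had 2450.3, 2834 and 2444 FPKM in phod2 P-, 1943, 2009 and 1948 in phod2 P+, 2616, 2701 and 2693 in KC P- and 1773, 1822 and 1837 in KC P+. LHCA1, ranked 12 of all genes and the most abundant LHCA gene over the 12 libraries, rose by 0.46 in phod2 and 0.58 in KC, without overlap. LHCA2 had 1645, 2134 and 1667 FPKM in phod2 P-, 2174, 2181 and 2158 in phod2 P+, 1701, 1669 and 1681 in KC P- and 2173, 2240.3 and 2241 in KC P+. LHCA2 was lower in all P- libraries of each genotype, with a change of -0.38 ± 0.096 (SE, adjusted p = 0.00343) in KC, whereas the phod2 value of -0.19 did not pass with all libraries (adjusted p = 0.101) and was -0.32 without replicate 2 of phod2 P-. LHCA6 had 148, 168 and 142 FPKM in phod2 P-, 117, 115 and 115 in phod2 P+, 133, 128 and 141 in KC P- and 114, 115 and 113 in KC P+. LHCA6, a linker of photosystem I to the NDH complex, was higher in every P- library and rose by 0.47 in phod2 and 0.25 in KC, where the call was lost without replicate 3 of KC P- (adjusted p = 0.0597). LHCA3 rose by 0.62 in phod2 and 0.45 in KC, and LHCA5, the other NDH linker, had values of 0.00 in phod2 and -0.03 in KC that did not pass.

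Among photosystem I subunits, PSAD2 carried the largest difference. PSAD proteins form the docking site for ferredoxin on the stromal side. PSAD2 had 758, 1023 and 722 FPKM in phod2 P-, 374, 389 and 391 in phod2 P+, 819, 917 and 844 in KC P- and 497, 494 and 486 in KC P+. The P- and P+ libraries did not overlap, and PSAD2 rose by 1.19 ± 0.12 (SE, adjusted p = 7.20e-07) in phod2 and 0.83 ± 0.12 (SE, adjusted p = 3.02e-05) in KC. It passed the 2-fold limit in phod2, where it was at 1.01 without replicate 2 of P- and at 0.85 with the length trend removed, and did not in KC, but the difference between these changes did not pass the test (0.37 ± 0.17 (SE, adjusted p = 0.186)). PSAE2 had 385, 549 and 392 FPKM in phod2 P-, 626, 635 and 602 in phod2 P+, 372, 385 and 405 in KC P- and 591, 618 and 627 in KC P+. PSAE2, a second stromal subunit, was lower in every P- library and fell by 0.42 in phod2 and by 0.64 in KC, and in phod2 replicate 2 was the P- library closest to the P+ values. Its copy PSAE1 rose by 0.37 in phod2 and had 0.09 in KC, which did not pass. The phod2 value of PSAE1 was 0.20 without replicate 2 of phod2 P- and -0.062 with the length trend of each library removed. PSAF had 1721, 2166 and 1689 FPKM in phod2 P-, 1729, 1757 and 1751 in phod2 P+, 1755, 1773 and 1802 in KC P- and 2086, 2124 and 2105 in KC P+. PSAF, which binds plastocyanin on the lumen side and was the most abundant PSI gene, was lower in every P- library of KC and fell by 0.22 in KC (adjusted p = 0.0474), while the phod2 groups overlapped (0.16, or 0.034 without replicate 2 of phod2 P-, neither passing). The KC call of PSAF was lost without any 1 of the 9 libraries other than phod2 P- (adjusted p up to 0.107), with RLE scaling (adjusted p = 0.0534) and with DESeq2 (adjusted p = 0.0621). It was kept without replicate 2 of phod2 P-, at -0.22 ± 0.021 (SE, adjusted p = 5.71e-15). PSAO had 1789, 2574 and 1762 FPKM in phod2 P-, 1377, 1455 and 1380.1 in phod2 P+, 1705, 1642 and 1789 in KC P- and 1437, 1459.9 and 1445 in KC P+. PSAO, a small subunit that takes part in state transitions, was higher in every P- library and rose by 0.62 in phod2 (0.41 without replicate 2 of phod2 P-) and had 0.26 in KC, which did not pass. PSAH1 ranged from 452 to 635 FPKM over the 12 libraries, the highest value being that of replicate 2 of phod2 P-, and passed in neither genotype with all libraries. The other 5 PSI genes apart from PSAG were PSAD1, PSAH2, PSAK and PSAN, which rose in both genotypes by 0.34 to 0.77, and PSAL, which fell by 0.37 in KC. In phod2 PSAL had -0.08, which did not pass, and -0.24 without replicate 2 of phod2 P-. With the length trend removed and a replicate block, PSAK in KC was at 0.086 and lost its call (adjusted p = 0.0617). PSAG passed in neither.

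Among photosystem II genes, PSBS passed both limits. PSBS senses lumen acidification and is needed for the rapid heat dissipation of excess light. PSBS had 1209, 1429 and 1194 FPKM in phod2 P-, 539, 539 and 511 in phod2 P+, 1086, 1079 and 1101 in KC P- and 505, 528 and 533 in KC P+. Its libraries separated by condition, with changes of 1.34 ± 0.081 (SE, adjusted p = 2.87e-09) in phod2 and 1.08 ± 0.08 (SE, adjusted p = 3.31e-08) in KC. PSBR had 4115, 5775 and 4167 FPKM in phod2 P-, 3705, 3662 and 3676 in phod2 P+, 3874, 3907 and 3891 in KC P- and 3484, 3595 and 3605 in KC P+. PSBR, the most abundant PSII gene and ranked 5 of all genes, was higher in every P- library and rose by 0.42 in phod2 and had 0.15 in KC, which did not pass. Its phod2 value was 0.24 without replicate 2 of phod2 P- and -0.018 with the length trend removed. PSBQ, PSBP and PSBO proteins stabilise the oxygen-evolving complex. PSBQ2 had 833, 1100.3 and 827 FPKM in phod2 P-, 1214, 1199 and 1193 in phod2 P+, 803, 814 and 800.0 in KC P- and 1095, 1128 and 1113 in KC P+. PSBQ2 fell by 0.31 in phod2 and by 0.44 in KC, all P- libraries of each genotype lying below its P+ libraries, and the phod2 call was lost without replicate 1 of phod2 P- (adjusted p = 0.0682) or replicate 3 (adjusted p = 0.0659). PSBQ1 had 1049.7, 1426 and 1032 FPKM in phod2 P-, 1166, 1104 and 1062 in phod2 P+, 1116, 1067 and 1146 in KC P- and 1059, 1167 and 1155 in KC P+. PSBQ1 overlapped between conditions in both genotypes, and its phod2 value was 0.15 with all libraries and -0.025 without replicate 2 of P-. PSBX had 1046, 1674 and 957 FPKM in phod2 P-, 727, 814 and 733 in phod2 P+, 905, 941 and 1031 in KC P- and 691, 677 and 681 in KC P+. PSBX, a small membrane subunit, was higher in every P- library and rose by 0.77 in phod2 and 0.51 in KC, and its highest value was that of replicate 2 of phod2 P-, without which the phod2 change was 0.47. In KC the call was lost without replicate 3 of KC P- (adjusted p = 0.0627). PSBY had 798, 1008 and 801 FPKM in phod2 P-, 661, 701 and 729 in phod2 P+, 751, 832 and 758 in KC P- and 778, 726 and 707 in KC P+. PSBY rose by 0.39 in phod2 (0.27 without replicate 2 of P-) and overlapped between conditions in KC. PSBO2 had 831, 1136 and 823 FPKM in phod2 P-, 877, 877 and 849.9 in phod2 P+, 803, 793 and 811 in KC P- and 733, 758 and 756 in KC P+. PSBO2 overlapped in phod2, was higher in every P- library of KC and passed in neither genotype, nor did PSBO1. Without replicate 2 of phod2 P-, the phod2 value of PSBO2 was -0.0011 and that of PSBO1, then called, was -0.12. PSBW rose by 0.93 in phod2 and 0.54 in KC, and PSBP1 rose by 0.28 in phod2 and had 0.11 in KC, which did not pass. PSBP1 in phod2 was at 0.15 without replicate 2 of phod2 P- and lost its call without replicate 3 of phod2 P+ (adjusted p = 0.0574).

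The RBCS genes were abundant and moved little. RBCS1A had 14238, 18043 and 13988 FPKM in phod2 P-, 12457, 12556 and 12475 in phod2 P+, 14231, 14812 and 14124 in KC P- and 12154, 12152 and 12065 in KC P+. RBCS1A, the highest gene of the whole table by mean FPKM, was higher in every P- library and rose by 0.38 in phod2 and 0.27 in KC. The phod2 value was 0.24 without replicate 2 of phod2 P-, and the KC call was lost without replicate 2 of KC P- (adjusted p = 0.0614) or any 1 of the KC P+ libraries. RBCS3B had 5385, 6750.1 and 5245 FPKM in phod2 P-, 4793, 4649 and 4538 in phod2 P+, 5425, 5468 and 5627 in KC P- and 4877, 5174 and 5028 in KC P+. RBCS3B was higher in every P- library of each genotype, rose by 0.39 in phod2 (0.26 without replicate 2 of P-) and had 0.15 in KC, which did not pass. RBCS2B had 4239.8, 5393 and 4276 FPKM in phod2 P-, 5378, 5430.4 and 5476 in phod2 P+, 4002, 4497 and 4245 in KC P- and 5509, 5504 and 5507 in KC P+. RBCS2B fell by 0.35 in KC, and in phod2 replicate 2 of P- overlapped the P+ libraries (-0.16, not passing). Without that library RBCS2B was called lower in phod2, at -0.28 (adjusted p = 1.74e-15). RBCS1B had 491, 695 and 476 FPKM in phod2 P-, 595, 656 and 577 in phod2 P+, 488, 505 and 523 in KC P- and 493, 504 and 488 in KC P+. RBCS1B, the least abundant, overlapped between conditions in both genotypes, in phod2 only through replicate 2 of P-. Without that library it was called lower in phod2, at -0.27 (adjusted p = 5.98e-11), against -0.06 with it. RBCS1B and RBCS3B share a coding run of 230 bases. With RBCS1B, RBCS2B and RBCS3B summed, the change was 0.15 in phod2 and -0.03 in KC, neither passing. RBCS1A made up 58.4% ± 0.074 of RBCS FPKM in phod2 P-, 53.9% ± 0.22 in phod2 P+, 58.4% ± 0.69 in KC P- and 52.4% ± 0.36 in KC P+.

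Genes of related pathways are given beside the share of all tested genes past adjusted p in either direction, which was 68% in phod2 and 64.5% in KC. In chlorophyll synthesis, 9 of 15 tested genes rose and 4 fell in phod2, and 10 rose and 2 fell in KC, or 86.7% in phod2 and 80% in KC. GUN4, an activator of magnesium chelatase, rose by 4.13 in phod2 and 3.92 in KC, from low levels of 0.3 to 0.92 FPKM in the P+ libraries. In phod2 P- GUN4 had 8.55, 16.9 and 9.0 FPKM, the highest in replicate 2. CAO, which makes the chlorophyll b of the antenna, rose by 3.31 in phod2 and 3.28 in KC, and CHLH, a magnesium chelatase subunit, by 2.33 in phod2 and 2.27 in KC. CHLH had 853, 530 and 859 FPKM in phod2 P-, the lowest in replicate 2. PORB, a protochlorophyllide reductase, fell by 2.84 in phod2 and by 2.58 in KC. Of 13 genes of electron transport and ATP synthase, 7 rose and 1 fell in phod2, and 6 rose and 2 fell in KC, or 61.5% in each. PGR5, of cyclic electron flow, rose by 1.84 in phod2 and 1.67 in KC, the ferredoxin gene FD1 rose by 1.60 in phod2 and 1.36 in KC, and the ferredoxin reductase gene LFNR2 fell by 2.32 in phod2 and 2.51 in KC. Of 16 Calvin cycle genes, 7 rose and 2 fell in phod2, and 6 rose and 3 fell in KC, or 56.2% in each, with FBA1 (fructose-bisphosphate aldolase) at 1.46 in phod2 and 1.51 in KC. Past both limits in KC was also RCA (Rubisco activase) at 1.06. Among 9 regulators of photosynthesis genes, 5 rose and 3 fell in each genotype (88.9%). The plastid sigma factor gene SIG5 rose by 6.27 in phod2 and 5.07 in KC, and SIG1 by 1.38 in phod2 and 1.42 in KC. GLK2, an activator of antenna genes, rose by 1.88 in phod2 and 2.40 in KC. HY5, a light-signalling factor, rose by 1.57 in phod2 and 0.62 in KC. In phod2, 1 regulator fell past both limits. GNC averaged 19.8 FPKM in phod2 P-, 43.3 in phod2 P+, 22.5 in KC P- and 27.8 in KC P+. SIG6 averaged 38.2, 66.6, 43.3 and 62.7 FPKM in the same groups.

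Clock genes moved with the same comparison. CCA1, a morning factor, had 55.1, 46.3 and 53.8 FPKM in phod2 P-, 0.1, 0.02 and 0.13 in phod2 P+, 59.7, 58.5 and 56.5 in KC P- and 0.24, 0.06 and 0.06 in KC P+. TOC1, an evening factor, had 8.88, 6.66 and 8.77 FPKM in phod2 P-, 76.7, 77.3 and 80.9 in phod2 P+, 8.54, 8.96 and 9.38 in KC P- and 75.7, 71.5 and 73.2 in KC P+. All 4 morning genes (CCA1, LHY, RVE8 and PRR9) rose and all 4 evening genes (TOC1, ELF4, LUX and PRR5) fell past both limits in each genotype. The summed morning level was 115 to 143 FPKM in phod2 P-, 0.44 to 0.77 in phod2 P+, 124 to 132 in KC P- and 0.5 to 0.87 in KC P+. The summed evening level was 12.7 to 15.2, 147 to 151, 19.9 to 20.9 and 171 to 176 FPKM in those groups, and PRR9 was listed at 0 in at least 1 P+ library.

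The second comparison was phod2 against KC within each condition. Differences were small, and none of the 45 members passed the 2-fold limit in P- (2.23% of all tested genes higher and 2.46% lower past both limits) or in P+ (1.98% higher and 5.42% lower). In P+, 1 member was higher and 5 were lower at adjusted p at most 0.05, against 12.5% of all tested genes higher and 15.6% lower, and the members' median log2 difference was -0.0038. LHCB1.1 was lower in all 3 phod2 libraries (-0.44 ± 0.081 (SE, adjusted p = 0.00104)), as were LHCB2.1 (-0.33 ± 0.088 (SE, adjusted p = 0.0114)) and LHCB2.2 (-0.33 ± 0.083 (SE, adjusted p = 0.00894)). PSAD2 was lower, at -0.37 ± 0.12 (SE, adjusted p = 0.0309), as was PSAF, at -0.28 ± 0.093 (SE, adjusted p = 0.034), again without overlap of the libraries listed above. LHCB1.2 was higher by 0.24 ± 0.082 (SE, adjusted p = 0.0448), and with LHCB1.1 to LHCB1.3 summed the difference was 0.02 (adjusted p = 0.912). LHCB1.1, LHCB2.1 and LHCB2.2 kept their calls in all 12 omissions of a single library. PSAD2 (adjusted p up to 0.0974) and PSAF (up to 0.0956) lost theirs without any 1 of the 6 P+ libraries, and LHCB1.2 (up to 0.125) without any 1 of the 9 libraries other than phod2 P-. PSAD2, PSAF and LHCB1.2 kept their calls without replicate 2 of phod2 P-, with values given below. For RBCS1A the 95% interval of the difference was -0.17 to 0.23, and for LHCB1.3 it was -0.21 to 0.20.

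In P-, 2 members were higher and 0 lower in phod2 (11% and 11.6% of all tested genes), with a median of 0.17. At an unadjusted p under 0.05, 13 were higher and 0 lower, and DESeq2 called 2 and 0. No share of all tested genes is given for these limits, so the counts are not read as a result about the members. LHCB4.3 was higher in all 3 phod2 libraries, by 0.61 ± 0.11 (SE, adjusted p = 0.00107), and PSBS, again without overlap, by 0.27 ± 0.08 (SE, adjusted p = 0.0278). Without replicate 2 of phod2 P- these values were 0.44 ± 0.041 (SE, adjusted p = 6.52e-14) for LHCB4.3 and 0.15 ± 0.026 (SE, adjusted p = 2.33e-06) for PSBS. Without that library the members' median was 0.0057, with 7 members higher and 9 lower (15.3% and 15.7% of all genes tested), and the SEs from the other 11 libraries were smaller, as the 2 genes show. Those lower then were LHCA1, LHCB1.1, LHCB1.2, LHCB1.3, LHCB1.4, LHCB2.2, LHCB2.3, PSAD2 and PSBQ1, with log2 values between -0.21 and -0.08. In P+ the same omission gave 8 higher and 17 lower (21.3% and 24.0% of all genes tested), with a median of -0.029. LHCB1.1 was then at -0.46, LHCB2.1 at -0.36 and LHCB2.2 at -0.35 on the log2 scale. PSAD2 was at -0.39 (adjusted p = 2.13e-18), PSAF at -0.31 (adjusted p = 6.21e-20) and LHCB1.2 at 0.21 (adjusted p = 9.07e-13). In P-, 13 members were higher without replicate 1 of phod2 P-, and 14 were without replicate 3. Both omissions kept replicate 2, in which the members lay high, and no share of all tested genes is given for them. PSBS lost its call without any 1 of the KC P- libraries (adjusted p up to 0.0866), and LHCB4.3 kept its call in all 12 omissions.

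**Figure D5:**
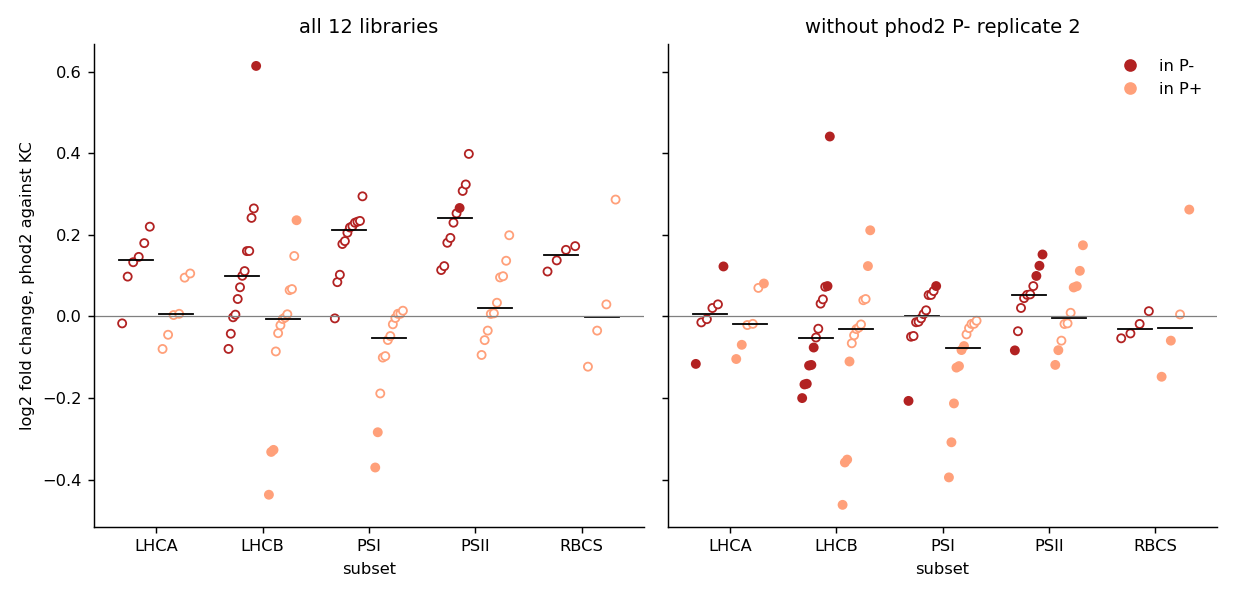
Fitted log2 difference of phod2 against KC for each of the 45 members, by subset, in P- (dark) and P+ (light), with all 12 libraries and without replicate 2 of phod2 P-. Filled points passed adjusted p at most 0.05 and lines are medians, and the P- medians of all subsets lie closer to 0 in the right panel.

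Organ markers were counted at adjusted p at most 0.05. For phod2 against KC, 11% of all tested genes were higher and 11.6% lower in P-, and 12.5% and 15.6% in P+. For P- against P+, 34.4% of all tested genes were higher and 33.6% lower in phod2, and 32.2% and 32.3% in KC. Of 16 root markers, 0 were higher and 7 lower in phod2 against KC in P-, and 0 were higher and 9 lower in P+. For P- against P+, 9 root markers were higher and 1 lower in phod2, and 8 were higher and 5 lower in KC. The 5 lower in KC were near the share of all tested genes. Their summed level was 66.2 to 71.2 FPKM in phod2 P-, 53.0 to 55.5 in phod2 P+, 106 to 109.9 in KC P- and 119.7 to 131 in KC P+. In KC the sum was higher in P+ although more root markers were higher in P-. CASP1 averaged 15.4 FPKM in KC P- and 35.7 in KC P+. Of 10 shoot markers, 4 were higher and 1 lower in phod2 in P-, and 8 were higher and 0 lower in P+. For P- against P+, 1 shoot marker was higher and 7 were lower in phod2, and 3 were higher and 6 lower in KC. The 3 higher in KC were near the share of all tested genes. Their summed level was 430.1 to 456 FPKM in phod2 P-, 652 to 686 in phod2 P+, 449.8 to 471 in KC P- and 530.1 to 558 in KC P+. None of these 26 markers was at 0 in any library, and their part in the members' values was not tested.

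The third comparison asked whether the change of P- against P+ differed between phod2 and KC. It was larger in phod2 for 2 members and smaller for 0, against 7.3% and 4.67% of all tested genes, and no member passed the 2-fold limit (2.39% and 0.685% of all tested genes). At an unadjusted p under 0.05 the counts were 9 and 1, and DESeq2 called 4 and 0, again with no share of all tested genes to set beside them. LHCB2.1 differed by 0.49 ± 0.12 (SE, adjusted p = 0.0182) and LHCB4.3 by 0.55 ± 0.16 (SE, adjusted p = 0.041). LHCB1.1 (0.36 ± 0.11 (SE, adjusted p = 0.0593)) and LHCB2.2 (0.37 ± 0.12 (SE, adjusted p = 0.0548)) had positive values that missed the limit. With LHCB2.1 and LHCB2.2 summed, the value was 0.43 (adjusted p = 0.0262). The median over the members was 0.22 with all libraries and 0.07 without replicate 2 of phod2 P-. That omission gave 21 members called positive and 7 called negative (14.5% and 9.51% of all genes tested), LHCB2.1 at 0.40 ± 0.045 (SE, adjusted p = 8.83e-11) and LHCB4.3 at 0.40 ± 0.068 (SE, adjusted p = 4.26e-06). The 7 called negative were LHCA1, LHCB1.2, LHCB1.3, LHCB3, PSBO1, PSBO2 and RBCS1B. Of these, LHCB1.3 then fell more in phod2 (-0.39) than in KC (-0.25). PSAL, called positive, fell less in phod2 (-0.24) than in KC (-0.37). The LHCB2.1 call was lost without replicate 3 of phod2 P+ (adjusted p = 0.0516), replicate 2 of KC P- (adjusted p = 0.0545) or replicate 3 of KC P+ (adjusted p = 0.0505). The LHCB4.3 call was lost without any 1 of the 9 libraries other than phod2 P- (adjusted p up to 0.107). For LHCB2.1 the values behind the test lay on both sides, since phod2 was lower than KC in P+ (-0.33) and had 0.16 in P-, which did not pass. For LHCB4.3 the genotypes overlapped in P+ and separated in P-.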

How the data were processed

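RNA was measured in 12 seedling libraries. The authors deposited raw counts and FPKM values per gene with an exonic length (column Exonic.gene.sizes), per the file headers. Neither the aligner nor the counting program, nor whether strand was used, is given in the sources used here. The submitters' processing notes name mm10, a mouse build, but 99.95% of 32536 matched genes have the same start and end in RefSeq TAIR10.1, so coordinates are given on that build. FPKM recomputed from counts matched within 0.006. Counts were tested with edgeR 4.0.16 (R 4.3.3; TMM, filterByExpr with a minimum count of 10, quasi-likelihood, 4 group means) over 20891 genes, with Benjamini-Hochberg adjustment; the test was checked on simulated data. Alternatives used DESeq2 1.42.0 and limma 3.58.1 on log2(FPKM + 1). Levels are FPKM. Intervals are 95% and floors use 3 counts, covering counting error only.

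The rule for members uses annotation alone, but members and lists were chosen with earlier results of these data known. Values in every library are given, per subset, for the most abundant member and those with the highest and lowest change in each pairwise comparison, and for members past both limits. In the pathway lists at most 4 genes past both limits are named per comparison. Same-numbered libraries did not deviate together (18 pairs, r between -0.0627 and 0.0619), so numbers were not used as pairs.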

Additional observations from a re-analysis of the deposited data

Results flagged for a closer look

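The change of P- against P+ differed between phod2 and KC, by a test of the difference itself, for LHCB2.1 (0.49 on the log2 scale, adjusted p = 0.0182) and LHCB4.3 (0.55, adjusted p = 0.041), both in edgeR's quasi-likelihood fit. Leaving out 1 library at a time, LHCB2.1 lost this call in 3 of 12 omissions (adjusted p up to 0.0545) and LHCB4.3 in 9 of 12 (adjusted p up to 0.107). LHCB2.1 averaged 1587 ± 171 FPKM in phod2 P-, 85.1 ± 2.02 in phod2 P+, 1455 ± 89.4 in KC P- and 106 ± 2.61 in KC P+ (SD, n = 3 each). LHCB4.3 averaged 109.5 ± 18.2, 19.8 ± 1.1, 73.4 ± 1.15 and 18.7 ± 0.586 FPKM in the same groups. Among the pathway genes, SIG5 differed by 1.204 (adjusted p = 0.000455), with 43.9, 35.4 and 43.1 FPKM in phod2 P-, 0.67, 0.51 and 0.49 in phod2 P+, 38.3, 39.9 and 42.3 in KC P- and 1.27, 1.05 and 1.3 in KC P+.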

How the results depend on the processing

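Tools and scalings moved few counts. The counts past both limits were the same under every alternative of tool, scaling or filter, and without any single library they ranged over 11 to 12 higher in phod2 and stayed at 10 higher in KC for P- against P+. RLE scaling moved no count of members by more than 1.5 times, nor did a replicate block, under which 23 members were higher and 8 lower in KC, 29 and 4 in phod2, and the median difference of the changes was 0.208. Same-numbered libraries did not pair, and 4 of 12 libraries lay closest to one of their own number. With no filter on low counts 4 members were higher in phod2 against KC in P-. For the change in phod2 minus that in KC, 4 members were called positive with no filter and 4 with DESeq2. Library totals only gave 5 positive (1 negative) and limma gave 4 (1 negative). These counts of the difference stand without a share of all tested genes.

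With the length trend of each library removed, members were shifted down, and 10 were higher past both limits in phod2 in place of 11. The median change of P- against P+ was 0.21 in phod2 and 0.13 in KC, with 10 members lower in phod2 and 14 in KC. Of all 20891 genes tested, 7419 were then lower in phod2 and 7355 in KC. In phod2 the values turned negative for LHCA5 (-0.26), PSAE1 (-0.062), PSAG (-0.18), PSBQ1 (-0.17) and PSBR (-0.018), and in KC for PSAE1 (-0.14), PSAG (-0.19) and PSBR (-0.096). For phod2 against KC the counts were 10 higher and 3 lower in P- and 6 higher in P+. In P+, 4443 of all 20891 genes tested were higher. No share of all tested genes is given for the P- counts or for the further counts in this paragraph, which are therefore not read as results about the members. The change in phod2 minus that in KC was called positive for 7 members and negative for 2. Adding the replicate block to that correction gave medians of 0.21 in phod2 and 0.13 in KC, 10 lower in phod2 and 13 in KC. LHCA5 was then at -0.26, PSAE1 at -0.063, PSAG at -0.18, PSBQ1 at -0.17 and PSBR at -0.019 in phod2, and PSAE1 at -0.15 and PSAG at -0.19 in KC. For phod2 against KC the block gave 9 higher and 3 lower in P- and 6 higher in P+. The difference of the changes was then called positive for 8 members and negative for 2, with a median of 0.079. The sum of LHCB1.1 to LHCB1.3 changed by 0.34 in phod2 and 0.39 in KC for P- against P+, whereas LHCB1.3 on its own was lower in P-. For phod2 against KC in P+ the sum differed by 0.017, whereas LHCB1.1 on its own was lower in phod2. The cause of these shifts was not tested, apart from the sums, which merge reads of LHCB1.1, LHCB1.2 and LHCB1.3.

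Leaving out 1 library at a time, the members lower in P- against P+ in phod2 numbered 2 to 12, and LHCA5 ranged between -0.112 and 0.079, LHCB4.1 between -0.053 and 0.17, PSAH1 between -0.071 and 0.21, and PSBO1 between -0.12 and 0.097. For phod2 against KC in P-, 1 to 14 were higher and 0 to 9 lower, with medians between 0.0057 and 0.26. LHCB1.4 ranged between -0.12 and 0.087, LHCB2.2 between -0.076 and 0.11, LHCB2.3 between -0.12 and 0.17, and PSBQ1 between -0.083 and 0.21. In P+, 0 to 8 were higher and 3 to 17 lower. The change in phod2 minus that in KC was called positive for 0 to 21 members and negative for 0 to 7, with medians between 0.072 and 0.32. For that difference LHCB1.3 ranged between -0.14 and 0.087, PSBO1 between -0.11 and 0.11, and PSBO2 between -0.12 and 0.15. The lowest value of each of these genes came without replicate 2 of phod2 P-. The ranges of counts in this paragraph stand without a share of all tested genes.

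LHCB1.5 had no count, and whether depth or the counting of the overlapping genes set this was not tested. The other members had at least 508 counts in every library.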
